A study of Mus musculus with 2 samples.

Results

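The genes described here were 8 targets of the transcription factor NRF2 (Nqo1, Gclc, Gclm, Txnrd1, Srxn1, Hmox1, Gsr and G6pdx), the gene of NRF2 itself (Nfe2l2) and that of its inhibitor KEAP1 (Keap1). They were taken as a fixed list of 10 gene symbols, from 27998 genes in the count tables, and all 10 were found. Levels were read in 3 kinds of barcode at both time points: barcodes with over 30% of their UMIs (unique molecular identifiers, each standing for 1 captured transcript) from mitochondrial genes, barcodes with under 2%, and barcodes of cell types other than hepatocytes. The genes were picked by symbol and not by their levels, though with earlier results of these data known. The barcode kinds were set from measured mitochondrial shares and cell type markers.

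The study asked how hepatocytes divide labor while the liver regrows after partial hepatectomy (PHx, surgical removal of part of the liver). Hepatocytes of C57BL/6 mice (C57BL/6J by the methods), adult males aged 10 to 12 weeks by the labels and slightly younger by the methods, were freed by collagenase perfusion and run on droplet-based 3' single-cell RNA-Seq. There was 1 library of undamaged liver (0 h) and 1 library of liver 48 h after PHx (PHx48h), each from a single hepatocyte preparation, and both groups carried no transgene, allele or drug that the labels name. With 1 library per time point there was no replicate check and no test. Every interval below covers counting error only, and animal, preparation, library and time point cannot be told apart.

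NRF2 is held in the cytoplasm by KEAP1, which hands it to the CUL3 and RBX1 ubiquitin ligase for destruction. Electrophiles and oxidants modify cysteines of KEAP1, so that NRF2 persists, enters the nucleus, pairs with small MAF proteins and binds antioxidant response elements near its target genes. The targets supply glutathione, thioredoxin reduction, NADPH, quinone reduction and heme breakdown, and in liver they are known for protection against reactive metabolites of drugs and bile acids.

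The libraries differed in more than time. The undamaged library held 59202 barcodes with a median of 1436 UMIs, and the PHx48h library held 1586 barcodes with a median of 6838.5 UMIs, none below 4578. The study kept fewer barcodes for its own analysis, and of undamaged liver a small part, after leaving out those of high mitochondrial content and possible doublets. All deposited barcodes were used here, and whether each held a whole cell, a fragment or free RNA was not tested. Of these barcode sequences, 148 were found in both libraries. Barcodes in clusters led by markers of other cell types were set aside first, and the rest were divided by mitochondrial share. This left 3845 and 731 barcodes over 30% mitochondrial (undamaged and PHx48h), 2204 and 190 between 2 and 30%, 51798 and 506 under 2%, and 1243 and 94 non-hepatocyte barcodes. All 10 hepatocyte markers (Alb, Apoa1, Ttr, Serpina1c, Fgb, Cps1, Ass1, Cyp2e1, Cyp2f2 and Hnf4a) were detected in every set. Levels are given in CPM, the UMIs of a gene summed over the barcodes of a set per 1000000 non-mitochondrial UMIs of that set. Because a UMI comes from the 3' end of a transcript, CPM do not grow with transcript length. Summed, the hepatocyte markers stood at 107371 CPM in undamaged and 101018 CPM in PHx48h barcodes over 30% mitochondrial, and at 88672 and 65179 CPM under 2%. They also stood at 66592 and 23362 CPM in the non-hepatocyte barcodes, so hepatocyte transcripts were found in barcodes of every kind. A further 112 undamaged and 65 PHx48h barcodes lay in clusters that could not be named and were left out.

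On the mm10 mouse assembly all 10 are protein-coding genes. Hmox1 (chr8:75093621-75100589), Gsr (chr8:33652523-33698163) and Nqo1 (chr8:107388225-107403206) lie on chromosome 8, Gclc (chr9:77754535-77794485) and Keap1 (chr9:21229730-21239361) on chromosome 9, and Srxn1 (chr2:152105516-152111376) and Nfe2l2 (chr2:75675513-75704641) on chromosome 2. Gclm lies at chr3:122245557-122270732, Txnrd1 at chr10:82833951-82897712 and G6pdx at chrX:74409483-74429194.

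Promoter sequence from RefSeq (GRCm38.p6, 250 bases before to 50 after the start) was matched for 7 of the 10 genes, with 9 start sites. The core of the antioxidant response element, TGACNNNGC on either strand, was found in 5 of these 9 windows, each of a different gene, and in 12.4% of all 32851 promoter windows of the table. The AP-1 motif TGACTCA overlaps this core where GC follows it. It stood in 5.2% of all windows, and none of the 5 cores held it. The promoters of Gclm, Txnrd1 (the second of its 3 start sites), Srxn1 and Nfe2l2 are shown as windows that hold the core, and that of G6pdx is not printed. They are written 5' to 3' on the gene's strand, with the core, or its reverse complement, in capitals.
Gclm, chr3:122245307-122245606, plus strand: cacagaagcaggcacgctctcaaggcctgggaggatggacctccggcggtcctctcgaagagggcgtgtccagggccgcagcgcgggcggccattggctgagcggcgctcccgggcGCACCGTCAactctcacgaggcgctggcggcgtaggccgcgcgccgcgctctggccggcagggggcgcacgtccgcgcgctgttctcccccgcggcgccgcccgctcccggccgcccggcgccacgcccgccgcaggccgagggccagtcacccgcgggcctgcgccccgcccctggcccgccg
Txnrd1, chr10:82858956-82859255, plus strand: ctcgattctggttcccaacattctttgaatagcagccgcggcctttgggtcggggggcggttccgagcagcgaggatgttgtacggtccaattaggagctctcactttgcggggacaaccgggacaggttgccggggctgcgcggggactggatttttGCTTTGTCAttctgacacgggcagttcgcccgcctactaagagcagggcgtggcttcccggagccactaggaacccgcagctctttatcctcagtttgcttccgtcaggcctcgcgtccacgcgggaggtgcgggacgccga
Srxn1, chr2:152105274-152105573, plus strand: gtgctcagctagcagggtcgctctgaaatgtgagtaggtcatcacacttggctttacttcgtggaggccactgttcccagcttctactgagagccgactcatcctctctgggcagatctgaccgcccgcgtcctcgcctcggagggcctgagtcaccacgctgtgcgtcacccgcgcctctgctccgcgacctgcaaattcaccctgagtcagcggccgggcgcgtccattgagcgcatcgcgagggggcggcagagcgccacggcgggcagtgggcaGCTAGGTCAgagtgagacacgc
Nfe2l2, chr2:75704614-75704913, minus strand: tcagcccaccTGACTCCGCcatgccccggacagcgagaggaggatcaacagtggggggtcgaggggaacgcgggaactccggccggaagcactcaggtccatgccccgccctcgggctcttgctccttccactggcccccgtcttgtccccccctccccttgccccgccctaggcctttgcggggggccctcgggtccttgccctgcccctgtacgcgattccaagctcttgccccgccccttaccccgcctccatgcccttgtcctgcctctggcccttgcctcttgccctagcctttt
The Srxn1 window also held 2 matches to TGACTCA outside the core. The fifth core was that of G6pdx, and no core was found in the windows of Nqo1 and Keap1. A match is a description of these letters, not a bound site, and binding was not measured here.

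In barcodes over 30% mitochondrial, all 10 genes had a higher level at 48 h than in undamaged liver, as did 71.5% of all genes measured, although the levels of Hmox1 and G6pdx differed by less than counting error. The median log2 ratio of the 10 genes was 1.66, beside 0.54 over all 6685 genes with at least 10 CPM as the mean of both sets. Of the 10, 6 were at least 2-fold higher (Nqo1, Srxn1, Txnrd1, Gsr, Nfe2l2 and G6pdx), while 30.6% of all genes measured were, and none was at least 2-fold lower (5.62% of all genes). The intervals of the levels lay apart for 8 members, each higher at 48 h, as they did for 51.6% of all genes that were higher and 15.6% that were lower. Of the 10, 7 reached the 10 CPM minimum, Nqo1, Hmox1 and G6pdx being scarcer, and the counts here include all 10. With TMM factors, which equalize the bulk of genes, the all-gene median was -0.0013 and that of the 10 genes 1.12, with 6 again past 2-fold (14.0% of all genes were at least 2-fold higher). The 3845 undamaged barcodes were shallower than the 731 of PHx48h, and among undamaged barcodes at least as deep as the shallowest of PHx48h (303) the median was 1.40 and 8 genes were past 2-fold. The all-gene median and share for this smaller set are not given here, so that count has no background beside it.

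The glutathione genes came first in level. Gclc, the catalytic subunit of glutamate-cysteine ligase and the rate-limiting step of glutathione synthesis, stood at 123 CPM (95% interval 114 to 132) in undamaged liver and at 182 CPM (170.1 to 195) at 48 h. Its log2 ratio of 0.57 (0.42 to 0.72) was close to the all-gene median. Gclm, the modifier subunit that raises the activity of the catalytic one, stood at 71.0 CPM (64.3 to 78.2) and 139.9 CPM (129 to 151), a log2 ratio of 0.98. The quotient of Gclc over Gclm UMIs was 1.73 (1.53 to 1.96) in undamaged liver and 1.30 (1.17 to 1.44) at 48 h.

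Genes that recycle oxidized thiols differed more. Srxn1, sulfiredoxin, which repairs overoxidized peroxiredoxins, had 63 UMIs in undamaged liver (11 CPM, 8.44 to 14.1) and 273 UMIs at 48 h (57.9 CPM, 51.3 to 65.2), a 5.27-fold higher level (4.0 to 7.05). Txnrd1, the cytosolic thioredoxin reductase, stood at 27.6 CPM (23.4 to 32.2) and 95.5 CPM (86.9 to 105), 3.47-fold higher (2.88 to 4.18). Gsr, which returns oxidized glutathione to its reduced form, stood at 34.0 CPM (29.4 to 39.1) and 106 CPM (97 to 116), 3.12-fold higher (2.64 to 3.70). Relative to Gclc UMIs, Srxn1 had a quotient of 0.0896 (0.0681 to 0.116) in undamaged liver and 0.318 (0.277 to 0.365) at 48 h, so Srxn1 and Gclc did not keep one proportion.

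Nqo1, a quinone reductase often used as a readout of NRF2, was scarce in both libraries. It had 12 UMIs in undamaged liver (2.09 CPM, 1.08 to 3.66) and 65 UMIs at 48 h (13.8 CPM, 10.6 to 17.6), a log2 ratio of 2.72 (1.82 to 3.74). This was higher than that of the other 9 genes. Its interval overlapped those of Srxn1 (2.00 to 2.82), Txnrd1 (1.53 to 2.06), Gsr (1.40 to 1.89), Nfe2l2 (1.34 to 2.02) and G6pdx, so Nqo1 cannot be ranked above these. G6pdx, glucose-6-phosphate dehydrogenase, the entry to the NADPH-making pentose phosphate pathway, had 3 and 8 UMIs, and its log2 ratio of 1.70 had an interval of -0.36 to 4.25. Mice also carry a near-identical copy of this gene, G6pd2, so its few UMIs are uncertain in origin. Hmox1, heme oxygenase 1, which opens the heme ring, had 23 and 19 UMIs, at 4.01 CPM (2.54 to 6.02) and 4.03 CPM (2.43 to 6.30). Its intervals overlapped almost completely, with a log2 ratio of 0.01 (-0.95 to 0.95).

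Both regulators were higher at 48 h. Nfe2l2 stood at 17.8 CPM (14.5 to 21.6) in undamaged liver and 56.9 CPM (50.3 to 64.1) at 48 h, 3.20-fold higher (2.54 to 4.06). Keap1 stood at 27.9 CPM (23.8 to 32.6) and 54.3 CPM (47.9 to 61.4), 1.95-fold higher (1.59 to 2.39). The quotient of Nfe2l2 over Keap1 UMIs was 0.637 (0.492 to 0.822) in undamaged liver and 1.05 (0.879 to 1.25) at 48 h. Keap1 UMIs outnumbered those of Nfe2l2 in these undamaged barcodes, while the interval at 48 h included 1. Under 2% mitochondrial Nfe2l2 UMIs were the more numerous. The quotient there was 1.20 (1.12 to 1.27) in undamaged liver and 1.77 (1.34 to 2.35) at 48 h.

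**Figure D1:**
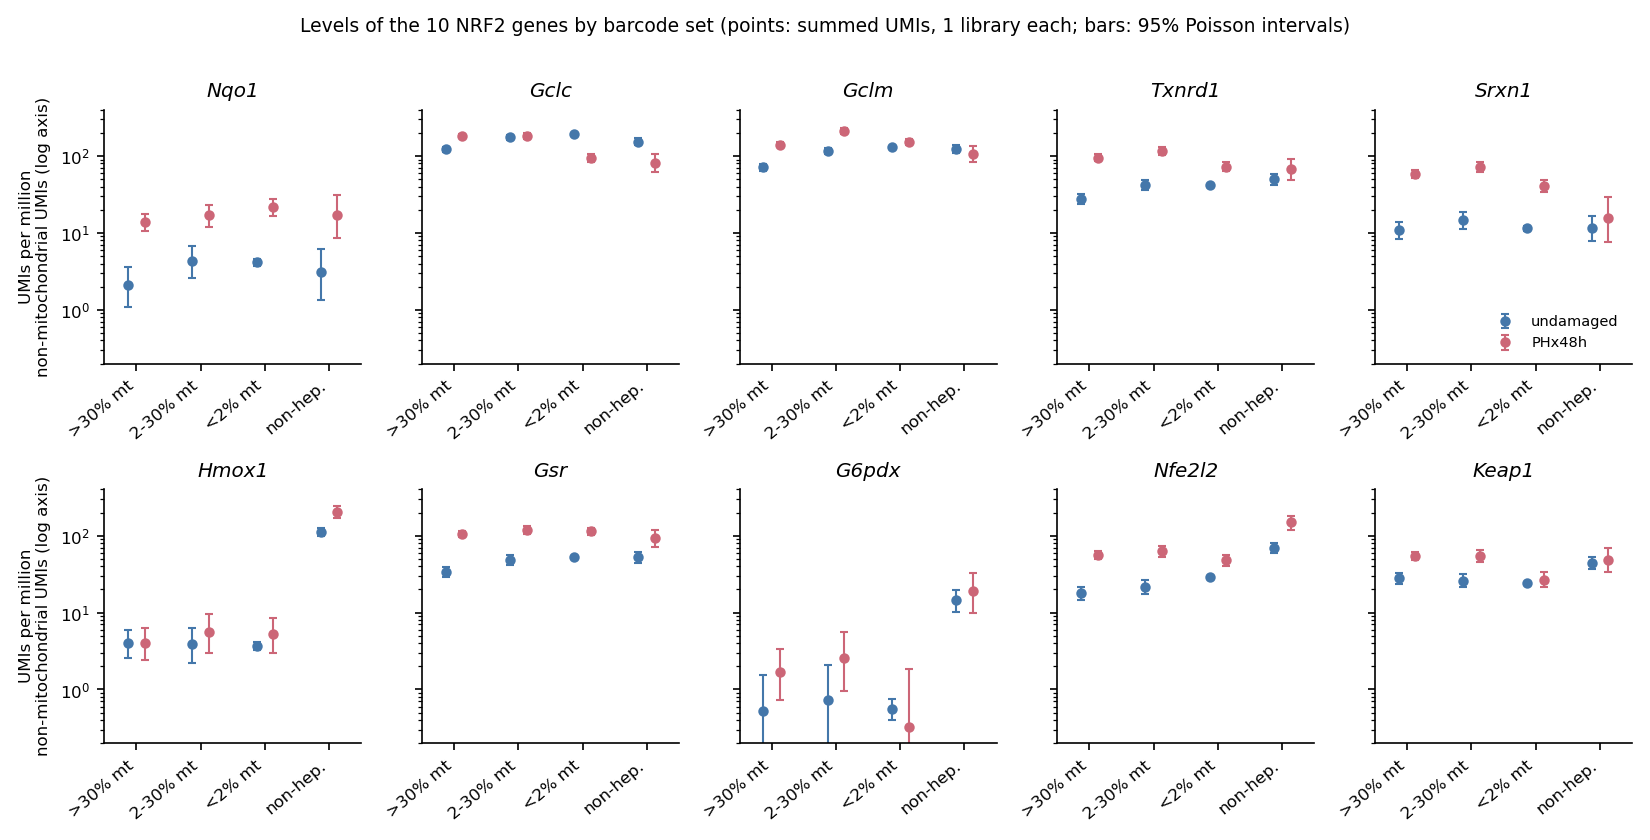
Levels of the 10 genes in CPM (log axis) by barcode set, with undamaged liver in blue and PHx48h in red. Points are summed UMIs of 1 library and bars are 95% Poisson intervals, those of G6pdx running below the axis in 3 places. Most genes stood higher in PHx48h over 30% mitochondrial, Gclc crossed over between the sets, and Hmox1 and G6pdx were highest in the non-hepatocyte barcodes.

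The libraries differed in depth, so the share of barcodes with a UMI of each gene was compared after thinning every barcode to 500 non-mitochondrial UMIs (75 undamaged barcodes over 30% mitochondrial were shallower and left out). After thinning, 8 of the 10 genes were found in a larger share of barcodes at 48 h. The matching share of all genes after thinning is not given here, and in CPM 71.5% of all genes measured were higher in this set. Srxn1 was found in 0.504% (exact binomial interval 0.304 to 0.786) of undamaged and 4.65% (3.24 to 6.44) of PHx48h barcodes, against 1.56% and 27.2% unthinned. Nfe2l2 was found in 0.981% (0.692 to 1.35) and 3.97% (2.67 to 5.65), against 2.63% and 26.7% unthinned. None of the cell types here is known to lack Srxn1, and in stromal-like barcodes, at median depths of 1526.5 and 7418 UMIs, 1 of 328 undamaged and 1 of 37 PHx48h barcodes held it after thinning. The exceptions were Hmox1, at 0.212% and 0.137%, and G6pdx, which no thinned barcode held (0 of 731 barcodes at 48 h allows a share of up to 0.410% by 3 counts of the total, and 0.503% by the exact interval).

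In barcodes under 2% mitochondrial the picture was smaller and mixed. Of the 10 genes, 8 were higher at 48 h and 2 lower, while 52.4% of all genes measured were higher. At least 2-fold higher were 3 (25.9% of all genes measured), and at least 2-fold lower was 1 (21.8%). The median log2 ratio was 0.62 beside 0.08 over all genes. Srxn1 stood at 11.5 CPM (10.7 to 12.3) and 40.7 CPM (33.8 to 48.5), Gsr at 52.5 CPM (50.9 to 54.1) and 114 CPM (103 to 127), and Nqo1 at 4.14 CPM (3.70 to 4.62) and 21.7 CPM (16.7 to 27.5). These were the 3 genes past 2-fold, and Gsr fell short of it with TMM factors (0.82), without the 20 most abundant genes (0.91) and among deep barcodes (0.72). The intervals of the levels lay apart for 6 higher members (41.8% of all genes were higher in this way) and for 1 lower member, Gclc (36.6%).

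Gclc went the other way in this set. It stood at 192 CPM (189 to 196) in undamaged liver and 93.2 CPM (82.6 to 105) at 48 h, a log2 ratio of -1.05 (-1.22 to -0.88). The ratio over 30% mitochondrial exceeded it by 1.62 (1.39 to 1.84), a difference that had no replicate check. Alb, the main hepatocyte transcript, moved in the same way, at 47973 and 22158 CPM under 2% mitochondrial and 45022 and 51900.4 CPM over 30%, and its ratios differed by 1.32 between the sets. Gclm was nearly level under 2% mitochondrial, at 130.1 CPM (128 to 133) and 152 CPM (139 to 167), and its log2 ratio of 0.23 turned to -0.075 with TMM factors. The quotient of Gclc over Gclm was 1.48 (1.44 to 1.52) in undamaged liver and 0.612 (0.526 to 0.711) at 48 h. The part of hepatocyte RNA content in these Gclc levels was not tested.

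The other members lay between these. Txnrd1 stood at 41.5 and 72.8 CPM (log2 ratio 0.81, 0.61 to 1.01) and Nfe2l2 at 28.9 and 47.6 CPM (0.72, 0.47 to 0.96). Keap1, at 24.1 and 26.9 CPM, and Hmox1, at 3.66 and 5.25 CPM, differed by less than counting error. G6pdx had 43 UMIs in undamaged liver and 1 at 48 h, a log2 ratio of -0.76 with an interval of -6.10 to 1.79. The ratio over 30% mitochondrial exceeded that under 2% beyond the counting interval of the difference for 7 of the 10 members, by 0.52 to 1.62 on the log2 scale. Over 6316 genes the median of this difference was 0.55, and 53.4% exceeded their interval. For 3 members, Gclc, Txnrd1 and Nfe2l2, the interval lay above that median.

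Barcodes between 2 and 30% mitochondrial stood near those over 30%. All 10 genes were higher at 48 h, as were 67.1% of all genes measured, 7 of them at least 2-fold (27.7% of all genes measured, while 8.29% were at least 2-fold lower and no member was), with a median log2 ratio of 1.40 beside 0.45 over all genes. Gclc was level there, at 175 CPM (163 to 188) and 183 CPM (166 to 201), between its higher and lower values in the other sets. Srxn1 stood at 14.7 and 71.8 CPM, and Gclm at 116 and 212 CPM, its highest level in any set.

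**Figure D2:**
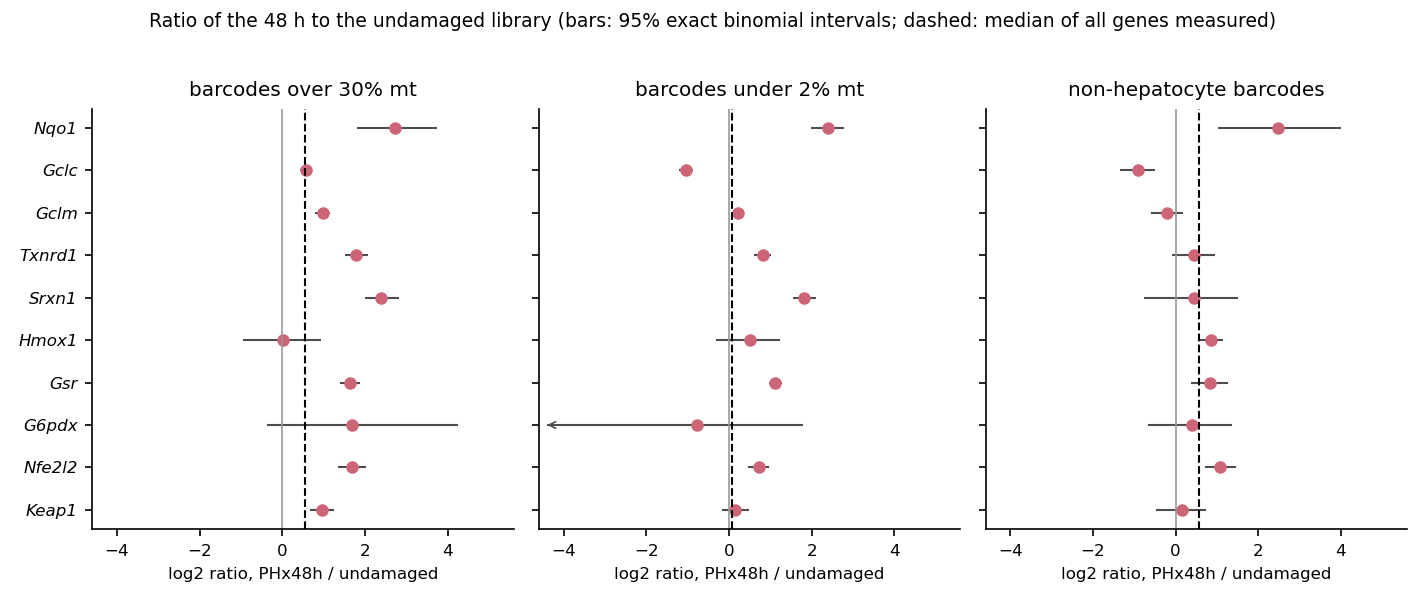
The log2 ratio of PHx48h to undamaged liver for each gene in 3 barcode sets, with 95% exact binomial intervals (an arrow marks the G6pdx interval that runs past the axis) and the median of all genes measured as a dashed line. Nqo1, Srxn1, Txnrd1, Gsr and Nfe2l2 lay right of that line in both sets divided by mitochondrial share, and Gclc lay at it over 30% mitochondrial but left of 0 in the other panels.

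Within undamaged liver, most of the 10 genes were lower over 30% mitochondrial than under 2%. The median log2 ratio was -0.61, beside -0.10 over all genes. Of the 10, 8 were lower and 2 higher, while 45.4% of all genes were higher. None was lower by 2-fold (11.1% of all genes were at least 2-fold lower and 11.7% at least 2-fold higher). Gclm showed it clearly, at 71.0 CPM over 30% and 130.1 CPM under 2%, as did Nfe2l2, at 17.8 and 28.9 CPM. Within PHx48h the order was mixed: 6 genes were higher and 4 lower over 30% mitochondrial, while 66.1% of all genes were higher. The median was 0.32 beside 0.49 over all genes. Gclc at 182 and 93.2 CPM and Keap1 at 54.3 and 26.9 CPM were higher over 30% mitochondrial at 48 h in CPM, with log2 ratios of 0.97 (0.77 to 1.17) and 1.01 (0.65 to 1.39). With TMM factors these were 0.43 and 0.48, and per total UMIs both turned, to -0.17 and -0.12. At least 2-fold higher were 2 of the 10 (Keap1 and G6pdx, the latter on 8 and 1 UMIs) and 31.2% of all genes, and no member but 7.8% of all genes were at least 2-fold lower. This median changes sign with the scaling: it was -0.21 with TMM factors, which also took the all-gene median from 0.49 to -0.04, and -0.81 when divided by total UMIs, mitochondrial ones included.

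The non-hepatocyte barcodes were led by markers of macrophages (388 undamaged and 23 PHx48h barcodes), endothelial cells (495 and 34) and stromal cells (328 and 37), with 25 B-cell-like and 7 dendritic-like barcodes in undamaged liver only. They separated Hmox1 and G6pdx from the other targets. Hmox1 stood at 112 CPM (99.7 to 126) in undamaged and 202 CPM (168 to 240.1) in PHx48h non-hepatocyte barcodes, against 3.66 and 5.25 CPM under 2% mitochondrial, log2 ratios of 4.94 (4.70 to 5.18) and 5.27 (4.51 to 6.12). G6pdx stood at 14.4 CPM (10.1 to 19.8) and 18.9 CPM (9.78 to 33.1), against 0.556 and 0.328 CPM. Nfe2l2 was also higher there, at 69.9 CPM (60.1 to 80.9) and 148 CPM (119.8 to 181). These 3 were the members at least 2-fold higher than under 2% mitochondrial in each library, where 24.6% (undamaged) and 49.8% (PHx48h) of all genes were. At least 2-fold lower was no member in undamaged liver (0.103% of all genes) and Srxn1 at 48 h (-1.37, 10.4% of all genes). Over all 10 genes the median log2 ratio was 0.14 and -0.14, beside 0.34 and 0.99 over all genes, and with TMM factors it was -0.59 and -1.16, beside -0.39 and -0.03.

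By class, Hmox1 was highest in macrophage-like barcodes. The resident macrophages of the liver, Kupffer cells, are known to clear aged red cells and recycle their heme. It stood at 295 CPM (261 to 333) in undamaged and 722 CPM (587 to 879) in PHx48h macrophage-like barcodes, next at 20.9 CPM (13.1 to 31.6) and 101 CPM (63.6 to 154) in endothelial-like ones, and lowest among the 3 classes in stromal-like ones, at 5.43 CPM (1.12 to 15.9) and 25.0 CPM (10.1 to 51.5). The intervals of macrophage-like and endothelial-like barcodes did not overlap in either library, while those of endothelial-like and stromal-like barcodes did in undamaged liver and not at 48 h. The 10 macrophage markers were all detected over 30% mitochondrial, where they summed to 22.7 and 14.9 CPM, against 10593 and 13021 CPM in macrophage-like barcodes. Endothelial-like barcodes carried 260.3 and 826 CPM of them and stromal-like ones 86.9 and 618 CPM, and their part in the Hmox1 level of those classes was not tested. Endothelial-like barcodes also carried 2211 and 1914 CPM of stromal markers, against 3022 and 12290 CPM in stromal-like ones. Stromal-like barcodes carried 223 and 2813 CPM of endothelial markers, against 4273 and 5714 CPM in endothelial-like ones. These classes were thus mixed, and the part of mixing in the level of any gene by class was not tested. The unnamed barcodes of undamaged liver, which carried 5836 CPM of macrophage markers, held Hmox1 at 289.6 CPM (236 to 352), and those of PHx48h held it at 2.63 CPM with 53.9 CPM of the markers.

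The 48 h difference of Hmox1 in macrophage-like barcodes, a log2 ratio of 1.29 (0.94 to 1.63), stood beside a lower Alb level in those barcodes. Alb was at 31307 CPM in undamaged and 12197 CPM in PHx48h macrophage-like barcodes. It was also lower at 48 h under 2% mitochondrial (47973 and 22158 CPM), so Alb alone does not measure the hepatocyte RNA in them. Counted against the macrophage markers instead, Hmox1 had 27.9 UMIs per 1000 marker UMIs in undamaged liver and 55.4 at 48 h, a log2 ratio of 0.99 (0.64 to 1.33). When non-hepatocyte barcodes were taken by 3 detected markers of a class in place of clusters, the Hmox1 ratio over time turned to -0.97 in CPM and stood at 0.85 (0.55 to 1.14) per marker UMI. Over 30% mitochondrial the same quotient was 177 and 271, on 23 and 19 Hmox1 UMIs over 130 and 70 marker UMIs. Under 2% it was 157 and 162, the latter on 16 Hmox1 UMIs over 99 marker UMIs. Clusters led by these markers had been set aside before these sets were formed, which lowers the marker UMIs left in them. The source of the Hmox1 UMIs there was not tested. Of the 99 Hmox1 UMIs of the 23 macrophage-like barcodes at 48 h, 18 came from 1 barcode, and the variance between barcodes was 6.88 times that of random sampling, against 3.42 in undamaged liver. At 48 h 82.6% of these barcodes held an Hmox1 UMI, against 2.33% over 30% mitochondrial (median non-mitochondrial depths of 5195 and 4161 UMIs).

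G6pdx followed the same order in undamaged liver, at 32.4 CPM (21.7 to 46.6) in macrophage-like, 4.75 CPM (1.54 to 11.1) in endothelial-like and 1.81 CPM (0.0458 to 10.1) in stromal-like barcodes. At 48 h it had 6, 1 and 5 UMIs in these classes, too few to order. Nfe2l2 was highest in macrophage-like barcodes of undamaged liver, at 89.5 CPM (71.0 to 111), and in endothelial-like barcodes at 48 h, at 179.9 CPM (128 to 246), but the intervals of these classes overlapped in both libraries. The quotient of Nfe2l2 over Keap1 was 1.58 (1.24 to 2.01) in undamaged and 3.03 (2.00 to 4.71) in PHx48h non-hepatocyte barcodes, above that over 30% mitochondrial in each library. Keap1 lay between 30.8 and 51.5 CPM in these classes, with overlapping intervals.

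The other genes hardly separated the classes of undamaged liver. Gclm was highest in macrophage-like barcodes (144 CPM) and lowest in endothelial-like ones (111 CPM), as was Txnrd1 (60.4 and 40.8 CPM). Gsr was highest in macrophage-like (72.7 CPM) and lowest in stromal-like barcodes (41.6 CPM), and Gclc was highest in stromal-like (187 CPM) and lowest in endothelial-like ones (142 CPM). Srxn1 and Nqo1 were highest in endothelial-like (13.3 and 3.80 CPM) and lowest in stromal-like barcodes (7.24 and 1.81 CPM). For each of these genes the intervals of the highest and lowest class overlapped.

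**Figure D3:**
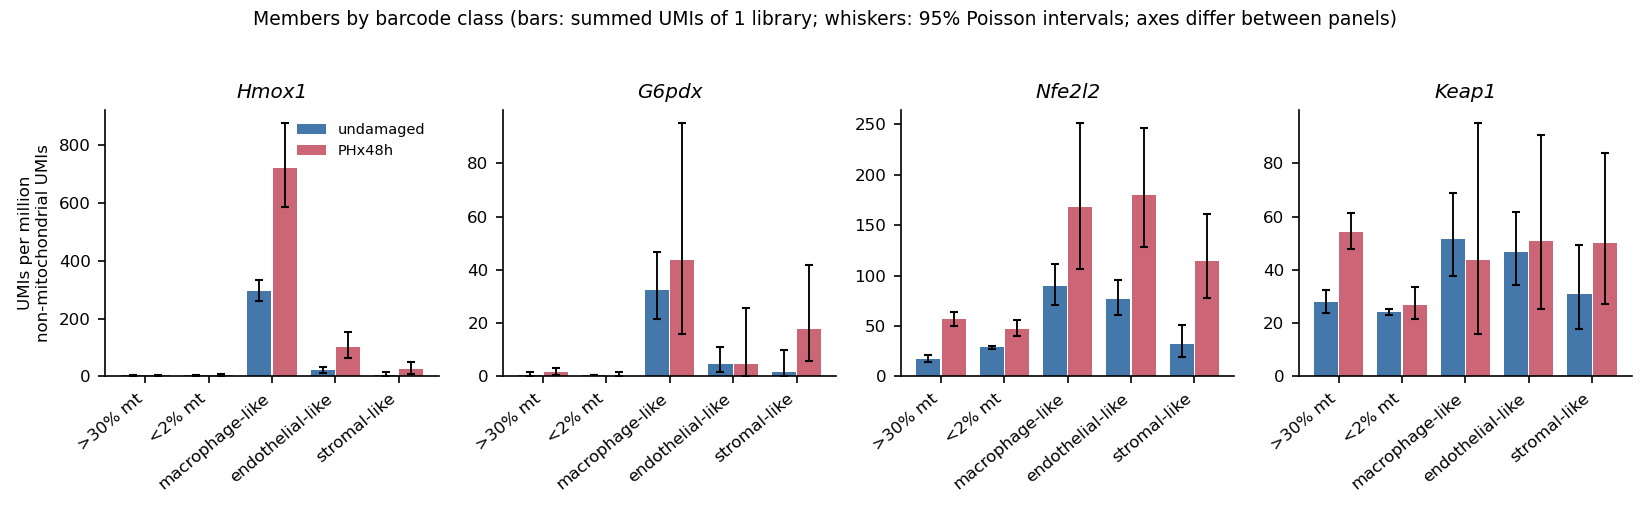
Levels of Hmox1, G6pdx, Nfe2l2 and Keap1 in CPM by barcode class, with undamaged liver in blue and PHx48h in red, each panel on its own axis from 0. Bars are summed UMIs of 1 library and whiskers are 95% Poisson intervals. Hmox1 peaked in macrophage-like barcodes at 295 and 722 CPM, while Keap1 whiskers overlapped across the 3 classes.

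Over time, the genes differed less in the non-hepatocyte barcodes. Their median log2 ratio was 0.44, below the 0.57 of all genes, and with TMM factors these were -0.19 and -0.06. Of the 10, 2 (Nqo1 and Nfe2l2) were at least 2-fold higher, against 33.6% of all genes, and none at least 2-fold lower (11.4%). Srxn1 stood at 11.7 CPM (7.86 to 16.6) and 15.8 CPM (7.57 to 29.0), so its intervals overlapped here, and its log2 ratio was 1.39 (0.32 to 2.46) below that under 2% mitochondrial. Gclc stood at 154 CPM (139 to 170.2) and 82.0 CPM (61.3 to 108), lower at 48 h, beside Alb at 35476 and 9274 CPM. The part of hepatocyte RNA in these Gclc levels was not tested. Nqo1 rested on 8 and 11 UMIs, 8 of the 11 at 48 h from endothelial-like barcodes, where it had its highest level of any set, 36.9 CPM (15.9 to 72.7).

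The classes were read one by one over time as well. In macrophage-like barcodes 4 of the 10 genes were at least 2-fold higher at 48 h (27.9% of all genes) and none 2-fold lower (14.9%): Hmox1, Gsr at 72.7 and 175 CPM (1.27, 0.53 to 1.96), Txnrd1 at 60.4 and 124 CPM (1.04, 0.16 to 1.85), and Nqo1 on 3 and 1 UMIs. In endothelial-like barcodes 3 were (33.3%, namely Nqo1, Hmox1 and Nfe2l2) and none was 2-fold lower (14.3%). In stromal-like barcodes 4 were (50.9%, namely Nqo1, Hmox1, G6pdx and Nfe2l2), and Gclc, at 187 and 50.03 CPM (-1.90, -2.82 to -1.09), was the 1 member 2-fold lower (14.6%). Alb stood at 43855 CPM in undamaged and 7680 CPM in PHx48h stromal-like barcodes. Nfe2l2 had log2 ratios of 0.91 (0.17 to 1.59), 1.23 (0.64 to 1.79) and 1.81 (0.93 to 2.73) in the macrophage-like, endothelial-like and stromal-like barcodes, beside all-gene medians of 0.38, 0.51 and 1.10, and the endothelial-like interval alone left its median out.

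The wider pathway was read from a list of 45 other genes. Over 30% mitochondrial, 39 of them reached the 10 CPM minimum, and 18 of these were at least 2-fold higher at 48 h (30.6% of all genes measured) and none 2-fold lower, with a median log2 ratio of 0.89 beside 0.54 over all genes. With TMM factors, an alternative chosen after seeing the data, 6 were (Gss, Txn1, Ftl1, Fth1, Cbr1 and Rbx1, beside 14.0% of all genes) and 1 was 2-fold lower (14.8%), with a median of 0.34 beside -0.0013. The log2 ratios below are in CPM without these factors. In the glutathione group, 4 of 5 measured genes were past 2-fold: Gss, glutathione synthetase, at 27.0 and 219 CPM (3.02, 2.77 to 3.27), with Glrx, Ggct and Gpx4 between 1.28 and 1.38. With TMM factors 1 of these 5 was. Slc7a11, the cystine carrier that feeds glutathione synthesis, had no UMI over 30% mitochondrial in either library.

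Of the thioredoxin and peroxiredoxin group, 4 of 7 were past 2-fold: Txn1, thioredoxin, the substrate of Txnrd1, at 66.5 and 373 CPM (2.49, 2.33 to 2.65), and Prdx3, Prdx5 and Prdx1, which break down peroxides, between 1.18 and 1.38, and with TMM factors 1 of 7 was. Of the heme and iron group, 5 of 6 were: the ferritin chains Ftl1, at 869 and 6444 CPM (2.89), and Fth1, at 622 and 3266 CPM (2.39), the biliverdin reductases Blvrb (1.39) and Blvra (1.05), and Hmox2 (1.17), the constitutive heme oxygenase, and with TMM factors 2 of 6 were. Ferritin and thioredoxin genes have processed copies in the genome, so their counts are uncertain where reads could be shared. Outside these groups Cbr1, a carbonyl reductase, stood at 11.5 and 133 CPM (3.53, 3.16 to 3.92), Rbx1, the ligase subunit, at 45.9 and 142 CPM (1.63), Pgd and Taldo1 of the pentose phosphate pathway at ratios of 1.32 and 1.10, and Ugdh, which makes the donor for glucuronidation, at 1.15. None of the 3 superoxide and peroxide genes was past 2-fold (Cat -0.26, Sod1 0.34, Sod2 0.75), and neither were the repressor Bach1 (0.28) or the partner Mafg (-0.05). Maff, another small MAF, had no UMI in undamaged liver and 11 at 48 h.

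Under 2% mitochondrial, 14 of the 39 measured pathway genes were at least 2-fold higher (25.9% of all genes) and 7 at least 2-fold lower (21.8%), with a median of 0.35 beside 0.08, and with TMM factors 11 and 8 were. Ferritin, thioredoxin, Gss and Cbr1 were high at 48 h here too: Ftl1 had a log2 ratio of 3.15, Fth1 2.72, Txn1 2.2, Gss 2.30 and Cbr1 2.78. Cat, catalase, at 2268 and 796 CPM (-1.51), Ephx1 (-1.36), the exporters Abcc2 (-1.09) and Abcc3 (-1.57), Tkt (-1.19), Nfe2l1 (-1.70) and Bach1 (-1.09) were the 7 lower ones. In the non-hepatocyte barcodes 9 of 40 were at least 2-fold higher (33.6%) and 5 at least 2-fold lower (11.4%), with a median of -0.06 beside 0.57, and with TMM factors 1 was higher and 16 lower.

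**Figure D4:**
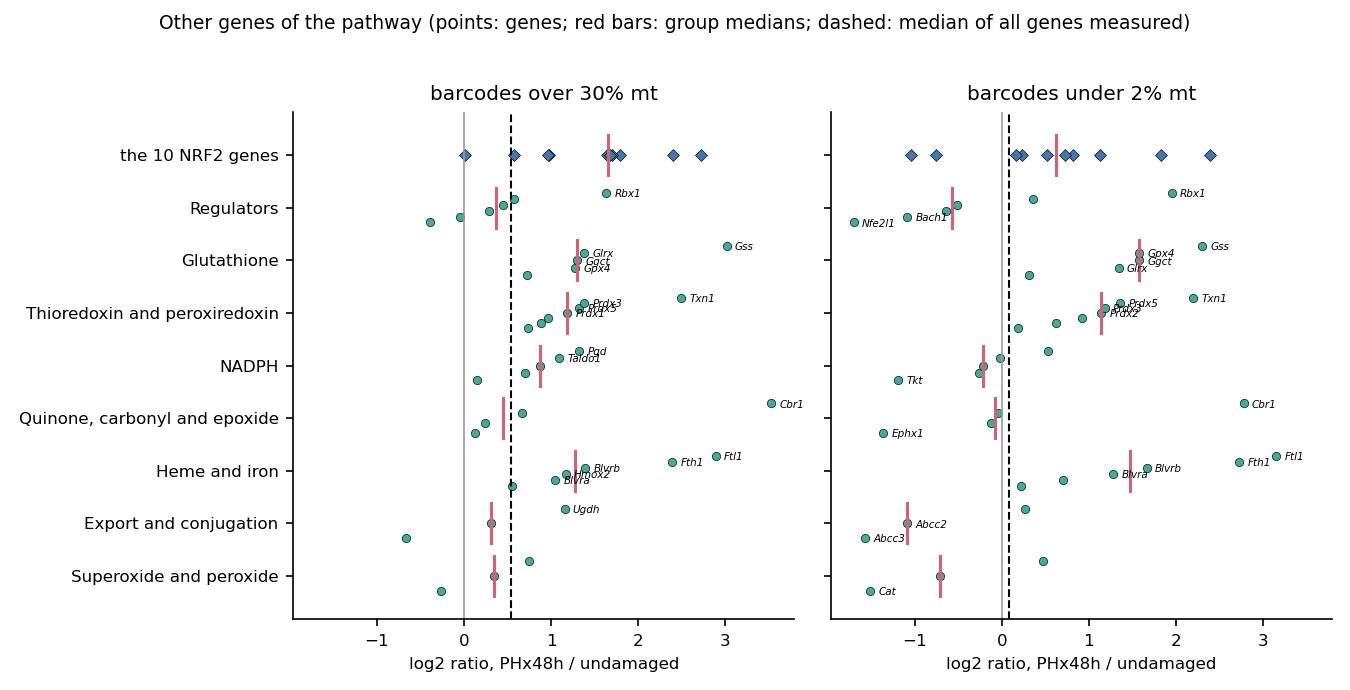
The log2 ratio of PHx48h to undamaged liver for the 10 genes (diamonds) and the measured genes of 8 pathway groups (circles) over 30% and under 2% mitochondrial, with group medians as red bars, the all-gene median as a dashed line and genes past 2-fold labelled. The medians of the heme and iron, glutathione and thioredoxin groups lay right of the dashed line in both panels. In the right panel the export, superoxide, regulator, NADPH and quinone groups had medians left of 0, of -1.09, -0.71, -0.58, -0.22 and -0.08.

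By a marker score of position in the lobule, 4 of the 10 genes were higher at its perivenous end beyond counting error in each library. They were Gclc, Gclm, Hmox1 and Gsr in undamaged liver, and Nqo1, Gclm, Srxn1 and Hmox1 at 48 h, and none was lower beyond it. The share of all genes higher in this way is not given here. Barcodes over 30% mitochondrial were ranked by the share of perivenous among perivenous and periportal marker UMIs, and of 3 ranges of near-equal size the one with the highest share was set against the one with the lowest (1283 and 1288 barcodes in undamaged liver, 244 and 244 at 48 h). These are ranges of one score and not cell types: 634 and 222 barcodes lay within 1 percentage point of a boundary. The boundaries lay at perivenous shares of 4.76 and 19.2% in undamaged liver and 3.47 and 9.21% at 48 h. Alb was among the periportal markers, at 45022 and 51900.4 CPM in these barcodes, so a low Alb level also raises the share. The part of Alb in these ratios was not tested. Cyp2e1 and Glul, perivenous genes used in the score, had log2 ratios of 3.32 and 4.31 in undamaged liver. The median over the 10 genes was 0.52 in undamaged liver and 0.31 at 48 h, beside 0.30 and 0.09 over all genes. In undamaged liver the intervals of the 4 genes named above all included that all-gene median. At 48 h the lower limits of the 4 lay above it, that of Hmox1 only just. Nqo1 and Hmox1 had levels at least 2-fold higher in the perivenous range in both libraries, where 8.46% (undamaged) and 2.54% (PHx48h) of all genes were. G6pdx, on 1 and 4 UMIs, was the 1 member at least 2-fold lower there, at 48 h (2.33% of all genes, and 1.69% in undamaged liver). For Nqo1 the counts were 6 and 1 UMIs in undamaged liver (log2 ratio 2.82, -0.23 to 8.34), and 26 and 20 UMIs at 48 h (23.3 and 9.11 CPM, log2 ratio 1.36, 0.46 to 2.27). For Hmox1 they were 12 and 4 UMIs (1.82, 0.09 to 3.9), and 9 and 5 UMIs (1.83, 0.09 to 3.75). When the barcodes were divided at the median share instead, at 48 h Nqo1 stood at 0.97 (0.23 to 1.73) and Hmox1 at 1.21 (-0.24 to 2.73). Gclm was higher by 0.52 (0.15 to 0.89) and 0.47 (0.19 to 0.75), and Gclc by 0.35 (0.09 to 0.62) and 0.07 (-0.17 to 0.32). At 48 h the perivenous range was also shallower, with a median of 3461 non-mitochondrial UMIs against 7028.5, and the part of depth in these ratios was not tested.

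**Figure D5:**
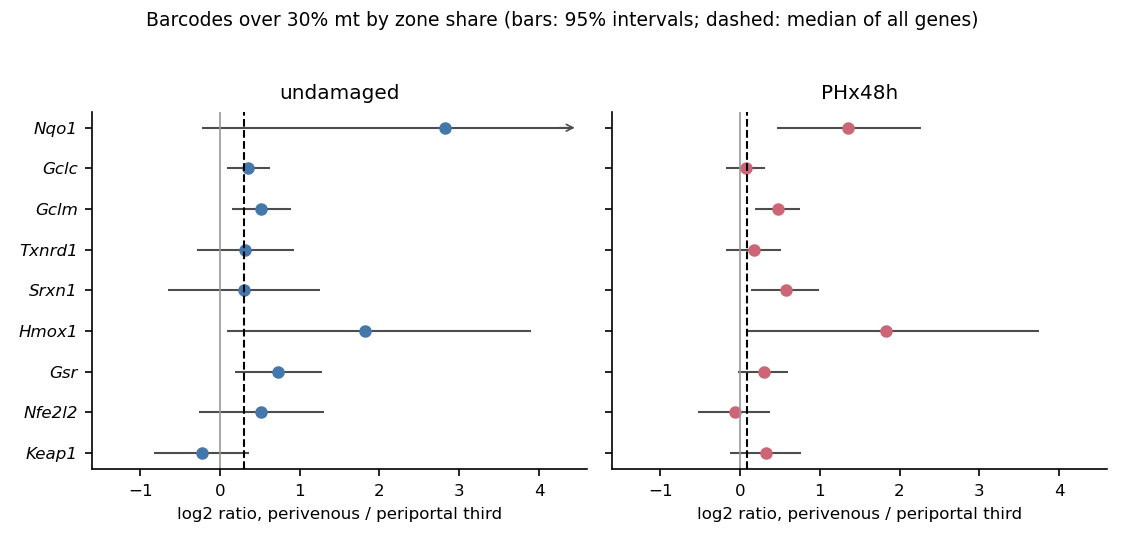
The log2 ratio between the perivenous and the periportal range of barcodes over 30% mitochondrial, for 9 of the 10 genes in each library, with 95% intervals and the all-gene median as a dashed line. G6pdx had 1 UMI in both ranges together in undamaged liver and is not drawn. Hmox1 and Nqo1 lay furthest to the right in both panels, with wide intervals.

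By proliferation, the difference of the genes depended on how the barcodes were divided. At 48 h, 218 of the 731 barcodes over 30% mitochondrial held a UMI of 1 of 25 proliferation genes after thinning to 500, and 513 did not. The median log2 ratio between them was 0.0015 beside 0.03 over all genes, and no member was at least 2-fold apart (1.81% of all genes were higher and 0.195% lower by that much). Txnrd1, at 113 and 87.6 CPM (0.36, 0.08 to 0.64), and Gsr, at 124 and 97.8 CPM (0.34, 0.07 to 0.61), were higher in the barcodes with proliferation UMIs beyond counting error. When the 183 barcodes with the highest unthinned proliferation share were compared with the other 548 instead, these stood at 0.83 (0.55 to 1.11) and 0.55 (0.28 to 0.82), Srxn1 at 0.41 (0.03 to 0.78), and the median at 0.35.

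Single genes varied among barcodes over 30% mitochondrial near the level of random sampling. The ratio of observed to sampling variance had a median over the 10 genes of 1.02 in undamaged and 1.10 in PHx48h barcodes over 30% mitochondrial, with Srxn1 highest at 48 h (1.31). The summed UMIs of the 10 genes had a ratio of 1.06 in undamaged liver and 1.45 at 48 h over 30% mitochondrial, 1.59 between 2 and 30% mitochondrial at 48 h and 1.14 under 2% at 48 h. At 48 h 89.3% of barcodes over 30% mitochondrial held a UMI of at least 1 of the 10 genes, against 34.8% in undamaged liver at lower depth.

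The genes with the most similar pattern were sought over the 8 sets of library and barcode kind, among 4842 genes of at least 20 CPM, by Pearson's correlation of log2(CPM + 5). The 8 points share 2 libraries, and the values are a description. Nqo1 was most like Nhp2, Nme1 and Psmd4 (r of 0.994 to 0.997). Hmox1 was most like Aqp1, Adgrl4 and Msr1 (0.999), which are known from endothelial cells and macrophages. Nfe2l2 was most like Ddx24, Snw1 and Gnb1 (0.990 to 0.992).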

How the data were processed

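Droplet 3' single-cell RNA-Seq (10x Genomics, version 2 chemistry) was measured in 1 undamaged and 1 PHx48h hepatocyte library. The deposited count tables hold raw UMI counts per gene and barcode, which the authors made with Cell Ranger on mm10 per the labels and methods; the annotation and the Cell Ranger version are not given in the sources used here. The 10 genes and all gene lists were chosen with earlier results of these data known.

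Barcodes were clustered per library on non-mitochondrial genes (scanpy 1.11.5, 2000 variable genes, 30 components, 15 neighbours, Leiden resolution 1 with leidenalg 0.10.2, candidate clusters divided again). A cluster was named where at least 3 markers of 1 class were in 20% of its barcodes at 3 times the level elsewhere. Of all markers, 2 of T or NK cells were not among the genes read. The remaining barcodes were divided at 30% and 2% of UMIs from the 13 mitochondrial genes. Near the upper limit, 128 undamaged and 10 PHx48h barcodes lay between 28 and 30%, and 113 and 7 between 30 and 32%. Scrublet called 34 of 59202 and 5 of 1586 barcodes doublets, too few for the caller to have worked on the undamaged library, so none was removed.

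UMIs were summed per set (Python 3.11.15, numpy 2.4.6, pandas 2.3.3). Levels have exact Poisson intervals and ratios exact binomial intervals at 95% (scipy 1.17.1), and intervals of a difference of ratios are normal approximations from the counts. Total counts were 96118593 and 18198719 UMIs, of which 6.24% and 37.0% were mitochondrial. UMIs of 1 barcode are not independent cells, and with 1 library per group no p-value was computed. The ratio code was tested on simulated counts. Named genes are the 10 members, the pathway genes past 2-fold over 30% mitochondrial whose interval left out no change, the highest and lowest class of each member, and, for Nqo1, Hmox1 and Nfe2l2, the 3 genes most like each. Other pathway genes named were chosen after their values were seen. Alternatives were other scalings (among them TMM from edgeR 4.0.16), depth limits, doublet removal, clusterings, limits on mitochondrial share and thinning to 1000 UMIs.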

Additional observations from a re-analysis of the deposited data

Results flagged for a closer look

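Gclc had log2 ratios at 48 h of opposite sign in barcodes of high and low mitochondrial share, 0.57 over 30% and -1.05 under 2%, a difference of 1.62. The value over 30% depends on the scaling: it was 0.027 with TMM factors and 0.30 per total UMIs. The difference was not tested, since each group has 1 library. Between barcodes over 30% mitochondrial and non-hepatocyte barcodes Gclc stood at 0.57 and -0.91, a difference of 1.48 that was not tested either, and the second was -0.21 with non-hepatocyte barcodes taken by 3 markers. Alb, read beside it, had ratios of 0.21 over 30%, -1.11 under 2% and -1.94 in the non-hepatocyte barcodes.

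Read within each library, Gclc was lower over 30% than under 2% mitochondrial in undamaged liver (-0.65) and higher at 48 h (0.97), a difference of -1.62. Txnrd1 showed the same turn, at -0.59 and 0.39, a difference of -0.98. Neither difference was tested, and both come from the same 4 sums of UMIs as the time ratios. Both values at 48 h depend on the scaling. With TMM factors they were 0.43 for Gclc and -0.14 for Txnrd1, and per total UMIs they were -0.17 and -0.74.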

How the results depend on the processing

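No paired analysis was possible because each group has 1 library. Over 30% mitochondrial, the median log2 ratio of the 10 genes at 48 h stayed above 0 under every alternative run. It was 1.39 per total UMIs, 1.44 without the 20 most abundant genes, 1.12 with TMM factors, 1.36 as the mean of single barcodes, 1.40 among deep barcodes, 1.17 with 5 CPM added and 1.21 over 50% mitochondrial, and the number of genes past 2-fold lay between 5 and 8. Apart from TMM, the shares of all genes past 2-fold under these alternatives are not given here. In the non-hepatocyte barcodes the TMM median was -0.19. Over 30% against under 2% in undamaged liver, the median was -1.48 per total UMIs, -0.79 with TMM, -0.77 among deep barcodes and -0.44 with 5 CPM added. At 48 h this contrast turned to -0.81 per total UMIs and -0.21 with TMM. Per total UMIs Gclc became -0.17, Txnrd1 -0.74, Srxn1 -0.63 and Keap1 -0.12, and with TMM Txnrd1 became -0.14 and Srxn1 -0.026. Non-hepatocyte against under 2% mitochondrial, the TMM medians were -0.59 in undamaged liver and -1.16 at 48 h, where Keap1 became -0.16. With non-hepatocyte barcodes taken by 3 detected markers the median at 48 h was 0.21, and Hmox1 over time in those barcodes became -0.97. Under 2% mitochondrial, Gclm over time became -0.075 with TMM and -0.57 among deep barcodes, where Hmox1 stood at -1.73, Keap1 at -0.37 and Txnrd1 at 0.07. Gclc in non-hepatocyte against under 2% barcodes of undamaged liver became 0.000149 among deep barcodes. That deep undamaged set held 12 barcodes under 2%, and its non-hepatocyte median could not be computed. With TMM factors, chosen after seeing the data for these genes, 6 in place of 18 pathway genes were past 2-fold over 30% mitochondrial. The proliferation median was 0.35 with the highest share against the rest, beside 0.08 over all genes. The cause of these moves was not tested, beyond the fewer barcodes and the other divisors that the alternatives use. Leaving out barcode sequences found in both libraries, an alternative chosen after seeing the data, left all 70 member values within their intervals, as did leaving out doublets or the deepest barcodes. Depth limits Hmox1, G6pdx and Nqo1, which rest on 1 to 66 UMIs in the PHx48h sets divided by mitochondrial share.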
